A study of Homo sapiens with 6 samples.

Results

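The 10 genes described here encode kinases of mitosis and components of the spindle assembly checkpoint: AURKA, AURKB, PLK1, PLK4, NEK2, TTK, BUB1, BUB1B, MAD2L1 and CDC20. They were selected by symbol, as genes of this group, with earlier results of these data known, and all 10 were found among the 35474 genes of the deposited count table. All 10 also passed the filter on low counts that left 20776 genes for testing. The samples were 6 RNA-seq libraries of A549, an established human lung adenocarcinoma cell line, collected 48 h after siRNA transfection. The 3 siCtrl libraries received a non-specific siRNA and the 3 siBAP18 libraries an siRNA against BAP18, a subunit of chromatin complexes whose gene is listed under the symbol C17orf49. All 6 were of the same line and no allele or other agent was given for either group. The sources describe 3 siRNAs against BAP18 and do not state which of them was used for sequencing, so a response to BAP18 and a response to the siRNA itself cannot be told apart in these libraries.

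In mitosis, protein kinases drive centrosome separation, spindle assembly and the attachment of chromosomes to microtubules. The spindle assembly checkpoint delays anaphase while kinetochores are unattached: TTK recruits BUB1 and BUB1B to kinetochores, MAD2L1 is converted there to its active form, and MAD2L1 and BUB1B together hold CDC20 so that it cannot activate the anaphase-promoting complex (APC/C). Transcripts of most of these genes rise in G2 and mitosis and fall in G1, so their level in a bulk sample follows the share of dividing cells as well as the RNA in each cell. Fewer cells in G2 and mitosis and less RNA per cell cannot be told apart in these libraries. By flow cytometry of A549 after BAP18 siRNA, the paper reports more cells in G1, fewer in S and no significant change in G2/M. Those cells were held in serum-free medium and released before the measurement, a step not described for the sequenced cells.

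The libraries held from 42094524 to 56548620 counts. C17orf49 had 743, 751 and 705 counts in siCtrl and 120, 137 and 108 in siBAP18, a log2 fold change of -2.65 (SE 0.111, adjusted p = 7.31e-16, Benjamini-Hochberg adjustment of edgeR's quasi-likelihood test, from which every adjusted p of a single gene here was taken). All 6 epithelial markers examined were detected, with a summed level of 21150 to 22978 CPM (counts relative to library size) in siCtrl and 16892 to 21068 CPM in siBAP18. Most of that sum was KRT8, and single markers moved apart: CDH1 fell to 39.9% of its siCtrl level (log2 fold change -1.32, adjusted p = 3.81e-14), EPCAM fell (-0.41, adjusted p = 3.78e-05), KRT8 (-0.37) and KRT18 (-0.24) fell, KRT7 rose (0.43, adjusted p = 5.95e-05) and KRT19 did not pass (0.15). Of 8 markers of other cell types, 5 were listed, and their summed level was 12.8 to 13.8 CPM in siCtrl and 9.43 to 10.6 CPM in siBAP18. Mitochondrial genes took 6.86% to 7.43% of the counts in siCtrl and 5.27% to 6.14% in siBAP18. The part of the marker levels in the results below was not tested, and without mitochondrial genes 7 of the 10 genes again fell.

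After BAP18 knockdown, 7 of the 10 genes fell and 0 rose, with edgeR as with DESeq2 and also without adjustment of p. BUB1B, PLK4, MAD2L1, TTK, NEK2, BUB1 and AURKA fell, to between 50.4% and 77.9% of their siCtrl level, whereas AURKB, PLK1 and CDC20 did not pass the test. Over all genes tested, 25.1% were lower and 24.5% were higher at an adjusted p under 0.05. The fitted log2 fold change was below 0 for all 10, with a median of -0.73 beside 0.001 over all genes tested. A fall past a log2 fold change of -1 was made by 0 of the 10, beside 3.74% of all genes. The same 7 genes had every siBAP18 value below every siCtrl value, which held for 29% of all genes. Counts of single genes ranged from 98 to 2884 per library, so none was near the limit that a count of 0 allows, which is 3 counts or at most 0.0713 CPM.

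The Aurora kinases act at different places in mitosis: AURKA works at centrosomes and spindle poles, and AURKB in the chromosomal passenger complex that corrects faulty attachments. AURKA (chromosome 20, 56369389 to 56392337, minus strand, GRCh38, 11 merged exons) was at 30.04, 30.1 and 29.1 CPM in siCtrl and at 24.7, 24.01 and 20.8 CPM in siBAP18. The groups did not overlap, and siBAP18 replicate 3 was the lowest. AURKA fell by 0.36 on the log2 scale (SE 0.0761, 95% interval -0.51 to -0.20, adjusted p = 0.000334). AURKB (chromosome 17, 8204733 to 8210600, minus strand, 8 merged exons) was at 37.2, 33.6 and 36.9 CPM in siCtrl and at 35.6, 29.04 and 32.3 CPM in siBAP18. Here siBAP18 replicate 1 lay above siCtrl replicate 2, and the log2 fold change of -0.15 did not pass the test (SE 0.0780, interval -0.32 to 0.0066, adjusted p = 0.105). It passed without siBAP18 replicate 1 (log2 fold change -0.23, adjusted p = 0.0394). The processed pseudogene AURKAPS1 had 2 to 25 counts per library, against 843 to 1598 for AURKA, and how reads shared between such copies were assigned is not given in the sources used here.

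Of the Polo-like kinases, PLK1 acts from mitotic entry to cytokinesis, and PLK4 sets the number of centrioles. PLK1 (chromosome 16, 23677656 to 23690367, plus strand, 9 merged exons) was at 50.8, 47.5 and 53.7 CPM in siCtrl and at 50.7, 45.9 and 50.3 CPM in siBAP18. The groups overlapped, with a log2 fold change of -0.05 (SE 0.0709, adjusted p = 0.587) whose 95% interval ran from -0.20 to 0.10. PLK4 (chromosome 4, 127880861 to 127899195, plus strand, 16 merged exons) was at 7.37, 6.90 and 6.65 CPM in siCtrl and at 3.90, 4.64 and 3.18 CPM in siBAP18. The highest siBAP18 library was below the lowest siCtrl library. PLK4 fell by 0.82 on the log2 scale (SE 0.127, interval -1.09 to -0.56, adjusted p = 6.36e-06). An antisense gene, CTD-2196E14.5, shares 553 bases with the exons of PLK1, which are 11.6% of the exon length of PLK1, and had 151 to 242 counts per library (log2 fold change 0.09, adjusted p = 0.594). ERN2, also antisense, shares 59 bases with PLK1 and had 0 to 4 counts. The libraries were strand-specific, but whether counting used the strand is not given in the sources used here.

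NEK2, a centrosomal kinase that loosens the link between centrosomes before they separate, lies on chromosome 1 (211658657 to 211675630, minus strand, 9 merged exons). It was at 25.8, 25.5 and 25.8 CPM in siCtrl and at 15.9, 15.8 and 14.1 CPM in siBAP18. The SD of the siCtrl libraries was 0.166 CPM, and all siBAP18 libraries were well below them. NEK2 fell by 0.75 on the log2 scale (SE 0.0764, adjusted p = 1.03e-08).

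The kinases of the checkpoint itself are TTK, also known as MPS1, and BUB1, with their partner BUB1B, also known as BUBR1. TTK (chromosome 6, 80003887 to 80042527, plus strand, 25 merged exons) had the lowest CPM of the 10, at 4.96, 3.89 and 4.32 in siCtrl and 2.65, 2.72 and 2.42 in siBAP18. The groups did not overlap, and TTK had the largest standard error of the 10 genes, with a log2 fold change of -0.76 (SE 0.141, interval -1.05 to -0.47, adjusted p = 7.41e-05). BUB1 (chromosome 2, 110637698 to 110678114, minus strand, 28 merged exons) was at 17.6, 19.3 and 18.8 CPM in siCtrl and at 11.7, 11.7 and 10.3 CPM in siBAP18. All siBAP18 libraries were lower, and BUB1 fell by 0.72 on the log2 scale (SE 0.0837, adjusted p = 8.75e-08). BUB1B (chromosome 15, 40161023 to 40221136, plus strand, 24 merged exons) was at 54.2, 59.9 and 56.9 CPM in siCtrl and at 27.8, 31.6 and 26.7 CPM in siBAP18. With 50.4% of its siCtrl level left it had the largest fall of the 10, of 0.99 on the log2 scale (SE 0.0750, interval -1.14 to -0.83, adjusted p = 5.68e-11). It passed the limit of -1 without siCtrl replicate 1 (-1.03), without siBAP18 replicate 2 (-1.06) and without a filter on low counts (-1.002). The readthrough gene BUB1B-PAK6 shares 457 exon bases with BUB1B on the same strand and had 30 to 59 counts per library.

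MAD2L1 and CDC20 are the inhibitor and the target of the checkpoint. MAD2L1 (chromosome 4, 120055608 to 120067074, minus strand, 5 merged exons) was at 9.01, 9.80 and 10.3 CPM in siCtrl and at 5.92, 5.38 and 5.45 CPM in siBAP18. The groups were far apart, and MAD2L1 fell by 0.79 on the log2 scale (SE 0.102, interval -1.005 to -0.58, adjusted p = 4.43e-07). The antisense gene RP11-679C8.2 shares 44 exon bases with MAD2L1. It had 0, 6 and 0 counts in siCtrl and 9, 9 and 11 in siBAP18, and its change was not tested. CDC20 (chromosome 1, 43358955 to 43363203, plus strand, 10 merged exons) was at 14.6, 13.5 and 13.5 CPM in siCtrl and at 12.8, 12.3 and 13.6 CPM in siBAP18. The groups overlapped through siBAP18 replicate 3, and the log2 fold change of -0.11 did not pass the test (SE 0.0838, interval -0.28 to 0.07, adjusted p = 0.312). In RPKM, which is scaled by total counts alone, the CDC20 groups did not overlap, with 6.55 as the lowest siCtrl and 6.41 as the highest siBAP18 value. Its pseudogene CDC20P1 had 26 to 60 counts per library.

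**Figure D1:**
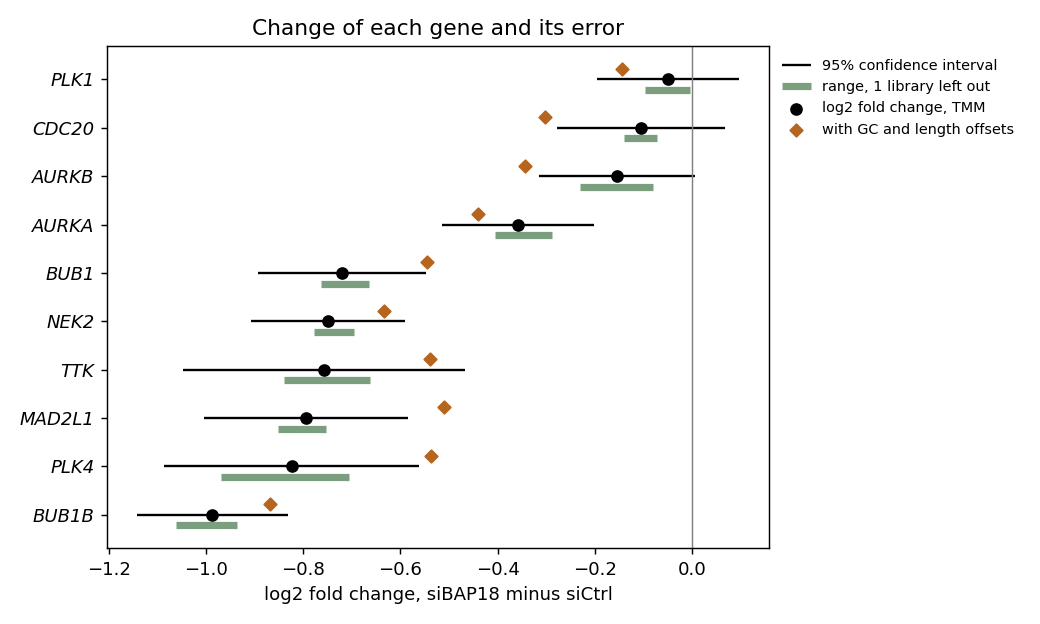
Log2 fold change of each of the 10 genes, siBAP18 minus siCtrl, with 95% intervals (black lines) from the fit over all genes, 3 libraries a group. Green bars are the range with 1 library left out, and diamonds are the fit with GC and length offsets, added after the values were seen. The estimates run from -0.99 for BUB1B to -0.05 for PLK1, and the intervals of AURKB, PLK1 and CDC20 include 0.

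Among the siBAP18 libraries, replicate 3 was the lowest for 6 of the 10 genes, replicate 2 for 4 and replicate 1 for 0. Replicate 3 was also the library with the fewest counts. Without it, the median log2 fold change of the 10 genes was -0.68 and the number that fell was again 7.

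**Figure D2:**
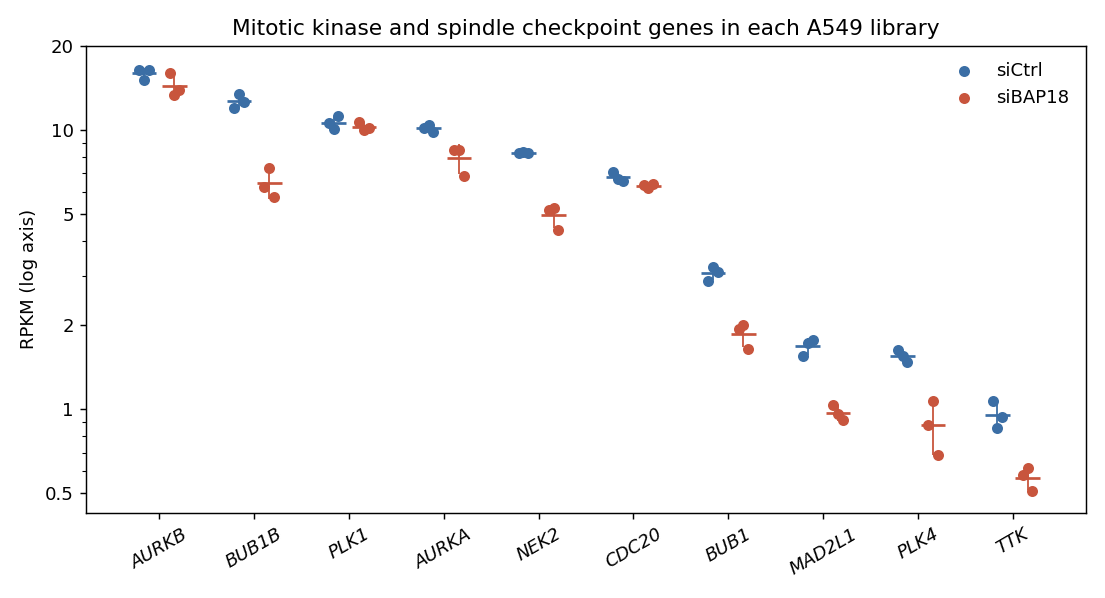
Levels of the 10 genes in each library, in RPKM on a log axis, in the order of their siCtrl level. Points are libraries, bars are means and lines are SDs of 3 libraries a group. The siBAP18 points lie clearly below the siCtrl points for BUB1B, NEK2, BUB1, MAD2L1, PLK4 and TTK and close to them for AURKB, PLK1 and CDC20.

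Levels were compared between genes per kilobase of exon (RPKM). In siCtrl the order was AURKB at 15.99 RPKM, BUB1B at 12.7, PLK1 at 10.6, AURKA at 10.1, NEK2 at 8.29, CDC20 at 6.77, BUB1 at 3.07, MAD2L1 at 1.68, PLK4 at 1.55 and TTK at 0.957. Neighbours whose libraries overlapped were PLK1 with AURKA and MAD2L1 with PLK4. In siBAP18, BUB1B stood at 6.44 RPKM, behind AURKB at 14.4, PLK1 at 10.3 and AURKA at 7.94. It was followed by CDC20 at 6.32, NEK2 at 4.95, BUB1 at 1.87, MAD2L1 at 0.972, PLK4 at 0.876 and TTK at 0.568. The libraries of BUB1B overlapped with those of AURKA and of CDC20 there, and those of MAD2L1 with those of PLK4. The order depends on the length used. Per kilobase of the longest protein-coding transcript, which is 2227 bases for PLK1 against 4760 bases of merged exons, PLK1 in siCtrl was above BUB1B (22.8 against 15.3 CPM per kilobase) and PLK4 above MAD2L1 (1.82 against 1.77), while the order in siBAP18 was the same by both lengths.

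Ratios between genes with paired roles asked whether they moved unequally. The log2 ratio of PLK1 to PLK4 was 2.86 ± 0.13 in siCtrl and 3.66 ± 0.34 in siBAP18 (SD, n = 3), a difference of 0.80 (two-sided exact permutation p = 0.1, adjusted p = 0.133 over the 4 ratios). For MAD2L1 to CDC20 it went from -0.51 ± 0.16 to -1.21 ± 0.10, a difference of -0.69 with the same exact permutation p = 0.1 (adjusted p = 0.133). BUB1 to BUB1B changed from -1.62 ± 0.02 to -1.35 ± 0.09, a difference of 0.27 (exact permutation p = 0.1, adjusted p = 0.133). In these 3 ratios the groups did not overlap, and 0.1 is the smallest p that 3 libraries against 3 can give, so none could reach 0.05. AURKA to AURKB went from -0.27 ± 0.10 to -0.48 ± 0.18 with overlapping groups (difference -0.21, exact permutation p = 0.3, adjusted p = 0.3). The ratios were not adjusted for GC content, which differs between PLK1 (57.3%) and PLK4 (38.4%) and between CDC20 (57.9%) and MAD2L1 (39.4%). AURKB (55.6%) and AURKA (46.6%) differ in it too.

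**Figure D3:**
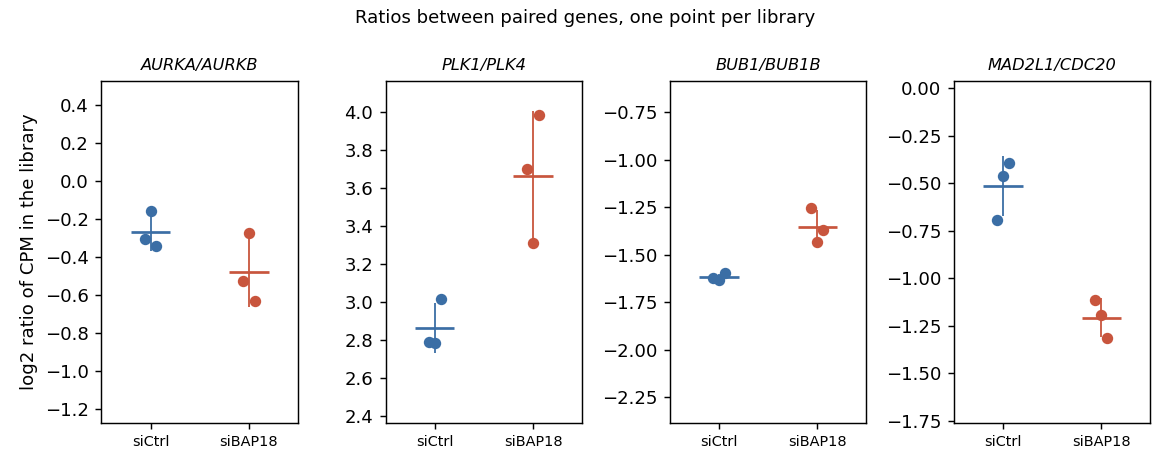
Log2 ratio of the CPM of paired genes in each library, with the mean (bar) and SD (line) of 3 libraries a group. The 4 vertical axes cover ranges of equal size around different centres and do not start at 0. Only the AURKA to AURKB ratio overlaps between groups.

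The 7 genes that fell and the 3 that did not also differed in base composition. The GC content of the longest protein-coding transcript was 38.4% to 46.6% (median 41.8%) for the 7 and 55.6% to 57.9% (median 57.3%) for AURKB, PLK1 and CDC20. Over the 10 genes the Spearman correlation of the log2 fold change with GC content was 0.81, and over 20529 tested genes it was 0.27, given as a description because all genes share the 6 libraries. For tested genes without a protein-coding transcript, the GC content of the longest transcript was taken. By GC content, 48.2% of tested genes at or under 40% were lower, 33.9% of those from 40% to 45%, 21.5% from 45% to 50%, 17.8% from 50% to 55%, 16.5% from 55% to 60% and 15.1% above 60%. An added fit, chosen after the values were seen, gave each library offsets for GC content and length. The offsets were fitted without regard to group, so a GC or length trend between the groups was taken out with them. Changes in this fit are therefore relative to genes of like GC content and length. In it all 10 genes fell, with a median log2 fold change of -0.52, and 5213 of all 20776 genes tested were lower. The genes that had not passed were then at -0.34 for AURKB (adjusted p = 8.65e-05), -0.30 for CDC20 (adjusted p = 0.00106) and -0.14 for PLK1 (adjusted p = 0.0340). BUB1B was at -0.87 in that fit and the others between -0.63 and -0.44. The split into 7 and 3 did not hold with these offsets, and whether the GC trend arose in the cells or in library preparation was not tested.

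**Figure D4:**
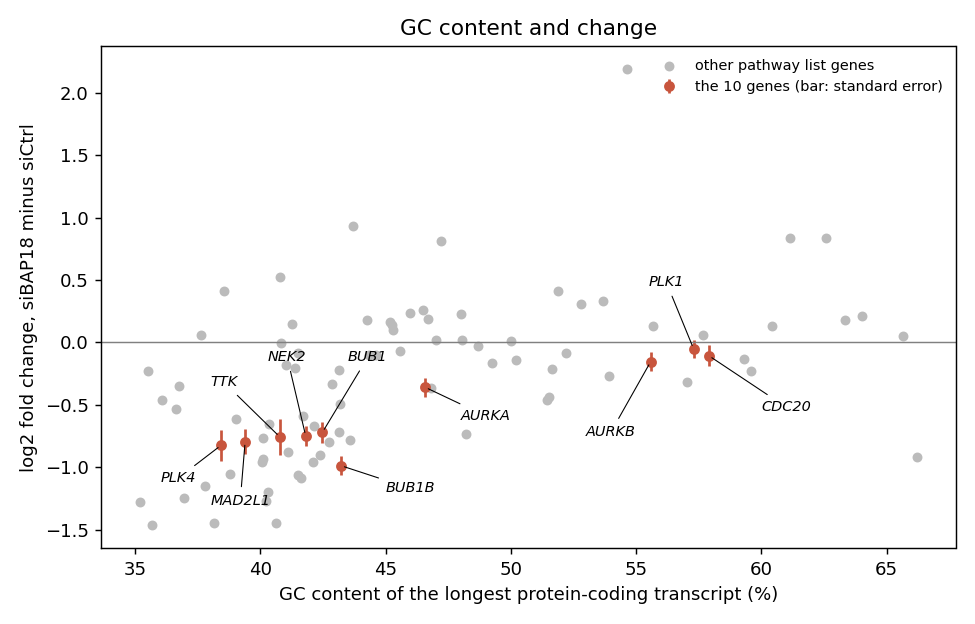
Log2 fold change (siBAP18 minus siCtrl) against GC content of the longest protein-coding transcript, for the 10 genes (red, with standard errors) and 81 other genes of their pathways (grey). The 7 genes that fell lie under 50% GC, and AURKB, PLK1 and CDC20 lie near 0 between 55.6% and 57.9% GC.

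Promoters of these genes were searched for words of elements known from genes that peak in G2 and mitosis. These are the cell cycle genes homology region (CHR, searched here as TTTGAA and TTCGAA) and the CCAAT box. Of the promoters, 4 are shown, from genes that fell and from genes that did not pass. All 4 hold a CHR word, and those of AURKB and NEK2, which hold none, are among those not shown. RefSeq windows of GRCh38.p14, from 250 bases before to 50 after the start, were matched for 8 of the 10 genes, and AURKA and TTK were not matched. On both strands, a CHR word was found in 6 of the 8 genes (not in AURKB or NEK2), beside 19.5% of 27305 genes with a window. CCAAT was found in 7 of the 8 (not in BUB1B), beside 39.7%, and both in 1 window in 4 of the 8, beside 7.85%. E2F words (TTTGGCGC, TTTCGCGC, TTTGGCGG and TTTCCCGC) were found in 0 of the 8, beside 4.05%. The words do not overlap one another in the windows printed, a TTCGAA reads the same on both strands, and a match is a description of letters, not a site. In the 4 windows, capitals mark CHR words and CCAAT on either strand, so ATTGG and TTCAAA are the words on the minus strand of the window. The windows are PLK1 at chr16:23678639-23678938 (plus strand) and CDC20 at chr1:43358731-43359030 (plus strand), which did not pass the test, and BUB1 at chr2:110678014-110678313 (minus strand) and BUB1B at chr15:40160819-40161118 (plus strand), which fell.
PLK1: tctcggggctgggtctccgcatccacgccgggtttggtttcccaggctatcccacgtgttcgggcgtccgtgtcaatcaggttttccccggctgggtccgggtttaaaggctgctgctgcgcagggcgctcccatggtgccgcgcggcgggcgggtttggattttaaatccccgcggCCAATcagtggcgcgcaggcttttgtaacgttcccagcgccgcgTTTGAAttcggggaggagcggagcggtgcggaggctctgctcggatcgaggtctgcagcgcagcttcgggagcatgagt
CDC20: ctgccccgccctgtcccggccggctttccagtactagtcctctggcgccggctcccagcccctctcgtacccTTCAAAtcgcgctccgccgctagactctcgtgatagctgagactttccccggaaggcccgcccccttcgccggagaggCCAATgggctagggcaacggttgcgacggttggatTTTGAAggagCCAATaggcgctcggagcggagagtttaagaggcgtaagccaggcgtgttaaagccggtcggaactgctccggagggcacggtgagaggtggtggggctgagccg
BUB1: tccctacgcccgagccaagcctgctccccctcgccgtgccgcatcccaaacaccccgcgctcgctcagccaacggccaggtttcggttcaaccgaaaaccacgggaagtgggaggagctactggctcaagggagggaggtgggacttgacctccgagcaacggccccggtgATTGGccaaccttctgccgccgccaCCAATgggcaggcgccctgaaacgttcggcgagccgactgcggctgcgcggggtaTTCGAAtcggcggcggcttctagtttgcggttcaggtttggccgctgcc
BUB1B: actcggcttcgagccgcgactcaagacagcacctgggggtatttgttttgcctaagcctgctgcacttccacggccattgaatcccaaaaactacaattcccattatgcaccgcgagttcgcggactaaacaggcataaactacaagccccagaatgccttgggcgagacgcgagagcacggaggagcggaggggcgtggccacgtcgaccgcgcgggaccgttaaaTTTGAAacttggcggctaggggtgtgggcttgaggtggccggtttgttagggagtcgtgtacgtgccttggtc

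In PLK1, TTTGAA began 29 bases before the start and CCAAT 73 bases before it. CDC20 held TTTGAA at 65 bases and, on the minus strand, 178 bases before the start, with CCAAT at 100 and 55 bases. BUB1 had TTCGAA from position 2, counting the start base as 1, and BUB1B had TTTGAA 23 bases before it and no CCAAT in the window. Thus CHR words stood both in genes that fell and in genes that did not pass. Sites for bases 2 to 8 of the siRNA guides were sought in the longest 3′ UTR of GENCODE 29. The word for siBAP18#1 (AATCACA) occurred once each in BUB1 and MAD2L1, and in 14.0% of 14170 genes, while those for siBAP18#2 (AAGATTC) and siBAP18#3 (ACTCAAC) occurred in 0 of the 10 genes, and in 11.0% and 6.82% of all.

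Around the 10 genes, 7 lists of 81 further genes were examined, of which 40 fell and 16 rose, with a median log2 fold change of -0.21. Of all genes tested, 25.1% were lower and 24.5% higher, the shares to set beside each list count below. The 16 that rose were a smaller share than that of all genes. The other checkpoint genes had the lowest median of the 7 lists, at -0.75, with 9 of 12 lower and 3 higher. KNL1 (listed as CASC5), the kinetochore scaffold that BUB1 binds, fell most of these, at -1.45 (adjusted p = 4.62e-10). KNTC1 at -1.27 (adjusted p = 6.26e-11) and ZWILCH at -1.15 (adjusted p = 5.09e-10), subunits of the complex that brings dynein and checkpoint proteins to kinetochores, fell as well, as did the kinetochore protein NUF2 at -1.05 (adjusted p = 1.83e-08). The 3 that rose, named after their values were seen, were ZW10 (0.93), the third subunit of the complex of KNTC1 and ZWILCH, MAD1L1 (0.84), which binds MAD2L1, and MAD2L1BP (0.31), which helps to switch the checkpoint off.

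Of 8 genes of centriole duplication, the process PLK4 controls, 7 fell and the other did not pass the test (median -0.71). CEP152 (-1.45, adjusted p = 4.36e-11), which recruits PLK4, SASS6 (-1.28, adjusted p = 1.74e-05), the cartwheel protein, and CENPJ (-1.09, adjusted p = 1.48e-10) fell by more than 1 on the log2 scale. Of 6 partners of the Aurora kinases, 5 fell and the other did not pass (median -0.41). CEP192, which brings AURKA to centrosomes, changed by -0.90 (adjusted p = 9.65e-08) and BORA, an activator of AURKA, by -0.87 (adjusted p = 0.000593).

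A list of other cell cycle kinases, not all of them kinases of G2 and mitosis, went both ways, with 8 of 14 lower and 5 higher (median -0.49). CDK1, the main mitotic kinase, fell with a log2 fold change of -1.25 (adjusted p = 2.83e-12), and NEK7 (-1.46), PBK (-1.19) and MELK (-1.06) fell by more than 1 as well. AURKC, the third Aurora kinase, rose from 15, 9 and 12 counts in siCtrl to 71, 67 and 37 in siBAP18 (log2 fold change 2.19, SE 0.321, adjusted p = 3.08e-06). The remaining 4 that rose, named after their values were seen, were PLK3 (0.83), PLK2 (0.81), WEE1 (0.53), which restrains CDK1, and NEK6 (0.41).

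Downstream of CDC20, the APC/C with its coactivator, E2 enzymes and inhibitor had a median of 0.02, with 3 of 18 genes lower and 3 higher. Both counts were under the shares over all genes tested, 25.1% lower and 24.5% higher. The inhibitor FBXO5 (-0.62, adjusted p = 2.71e-05) and the subunit CDC27 (-0.53, adjusted p = 9.06e-06) changed most. Of 6 genes whose proteins are degraded or activated in mitosis, 4 fell and the others did not pass (median -0.27). Among the 4 were GMNN, an inhibitor of replication licensing, at -0.78 (adjusted p = 5.76e-09) and the cyclin CCNA2 at -0.67 (adjusted p = 6.39e-07). A list of 17 genes of mitotic dephosphorylation had 4 lower and 5 higher (median 0.14), both near the shares over all genes. It held subunits of PP1 and PP2A and the CDC14 phosphatases, but also the PP2A inhibitors ENSA and ARPP19 and the CDC25 phosphatases, which activate CDK1. ARPP19 (-0.35) was among the 4 that fell and CDC25C (0.26) among the 5 that rose, both named after their values were seen. PPP2R1B, a scaffold subunit of PP2A, was at -0.80 (adjusted p = 2.2e-06) and PPP1CC, a catalytic subunit of PP1, at -0.65 (adjusted p = 2.08e-07). GC content went with these changes too: of 58 list genes under 50% GC 34 fell and 8 rose, and of 23 at or above 50% 6 fell and 8 rose, a limit chosen after the values were seen. Over all tested genes, the share that fell ran from 48.2% to 21.5% in the GC classes up to 50%. Above 50% it ran from 17.8% to 15.1%, and shares that rose were not computed by GC class.

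**Figure D5:**
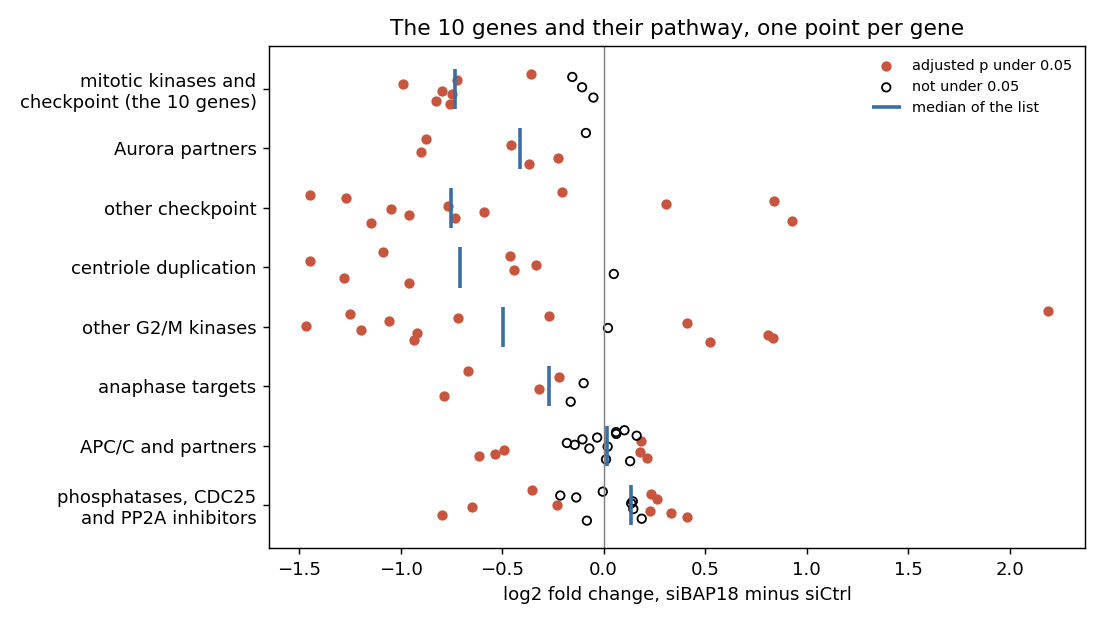
Log2 fold change (siBAP18 minus siCtrl) of the 10 genes and of the 7 pathway lists, 1 point per gene with the list's median. Medians run from -0.75 for the other checkpoint genes to 0.14 for the phosphatases with CDC25 and PP2A inhibitors, and AURKC at 2.19 is the highest point.

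By similarity across the 6 libraries, the genes closest to the mean standardized log2 CPM of the 10 were ZC3H8 (Pearson r = 0.999), ADAM23 (0.998), EEF1E1-BLOC1S5 (0.997), SRXN1 (0.997) and RP11-1100L3.8 (0.996). With 6 libraries in 2 groups such values are common, and 1321 of 14126 genes searched had an r over 0.95.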

How the data were processed

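RNA from 3 siCtrl and 3 siBAP18 cultures of A549 was sequenced from strand-specific libraries. The authors deposited counts per gene, which are whole numbers without normalization, and RPKM values, which equal counts per kilobase of listed gene length, scaled by the total of the library. The aligner, the counting program and the use of strand are not given in the sources used here. Per the labels the builds are GRCm38 and hg38, and the gene coordinates in the table are those of the human build.

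Genes passing filterByExpr in edgeR 4.0.16 (R 4.3.3) were scaled by TMM and compared with its quasi-likelihood test and Benjamini-Hochberg adjustment over 20776 genes. SEs were obtained as the ratio of the log2 fold change to the root of the F statistic. CPM uses TMM-scaled library sizes. Alternatives used DESeq2 1.42.0, limma 3.58.1 on log2(RPKM + pseudocount of 1 or 0.1), other scalings and filters, libraries left out and a replicate block. Labels call the 3 samples of a group biological replicates. No pair was a copy (chi-square per degree of freedom 4.17 to 4.87 in siCtrl, 11.0 to 25.8 in siBAP18).

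The 10 genes and the pathway lists were chosen with earlier results of these data known. Each of the 10 is named. In each list, genes past an adjusted p of 0.05 and a log2 fold change of 1 in size are named, or else the 2 largest changes. C17orf49, genes sharing exon bases with the 10 and the 5 most similar genes (average log2 CPM of at least 1) are named too. Steps were tested on simulated data. GC content and 3′ UTRs came from GENCODE 29, which gave GC content for 98.8% of tested genes. The planned comparison of protein sequences was not run.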

Additional observations from a re-analysis of the deposited data

How the results depend on the processing

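Over 18 alternatives, the number of the 10 genes that fell ranged from 7 to 10 and the number that rose was 0. Only the fit with GC and length offsets, chosen after the values were seen, gave 10, and the others gave 7 or 8. Of all genes, 3671 to 5496 were lower over the same alternatives, which differ in the number of genes tested. AURKA, PLK4, BUB1, BUB1B, TTK, MAD2L1 and NEK2 stayed past the threshold in all 18 alternatives, and no log2 fold change reversed. The replicate numbers did not pair the libraries (Pearson r of residuals -0.017, 0.051 and 0.0038). With the replicate block 8 of the 10 fell, since AURKB passed (-0.16, adjusted p = 0.0476), with a median of -0.74. The adjusted p of AURKB ran from 8.65e-05 to 0.379 over the alternatives. Past a log2 fold change of -1, 1 gene, BUB1B, was called without a filter on low counts and 0 to 1 with a library left out. The median log2 fold change of the 10 was -0.38 by limma on log2(RPKM + 1), with and without a filter, -0.68 on log2(RPKM + 0.1), -0.52 with GC and length offsets, and -0.76 to -0.68 with a library left out. The log2(RPKM + 1) scale compresses low genes by construction. Genes lower past a log2 fold change of -1 numbered 777, but 133 and 434 by limma with pseudocounts of 1 and 0.1. The 4 ratios kept their direction with each of the 6 libraries left out, but were not computed with the GC and length offsets. In the fit with offsets PLK1 was at -0.14 and PLK4 at -0.54, and CDC20 at -0.30 and MAD2L1 at -0.51. AURKA was at -0.44 and AURKB at -0.34 there, and BUB1 at -0.55 and BUB1B at -0.87. RPKM in place of CPM gives the same differences by construction, and no p could fall below 0.1.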
